A study of Homo sapiens with 12 samples.

Results

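The HOX cluster genes were taken as every protein-coding gene whose symbol is HOX followed by A, B, C or D and a number, which gave 39 genes of the 58174 in each deposited table and of the 19762 protein-coding genes among them. The rule uses symbols and no measured value, though the choice was made with earlier results of these data known. All 39 were found in both tables, 11 in the HOXA cluster, 10 in HOXB, 9 in HOXC and 9 in HOXD. The study sequenced mRNA from U87 and U118, established human glioblastoma cell lines, in 4 groups of 3 libraries, 12 in all. Cells of both lines had first been sorted for lack of the stem cell surface markers CD133 and CD15 and were kept in medium with serum and BMP2, a differentiation factor, so these conditions are shared by every group. The control cells, which the labels call sensitive, had no temozolomide (TMZ, an alkylating drug). The aggregation cells, which the labels call resistant, came from cells treated with TMZ at 50 μM. The study describes the sequenced aggregations as formed after TMZ treatment. The aggregations were outgrowths of the few cells that survived long TMZ exposure, so each aggregation group may stand for a small part of the starting cells. Nothing in the labels says that the 3 libraries of a group came from separate cultures, and p-values then measure only the spread between these libraries.

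HOX genes encode homeodomain transcription factors that give cells their position along the head-to-tail axis of the embryo. They lie side by side in clusters, and within a cluster low-numbered (anterior) genes are used nearer the head and high-numbered (posterior) genes nearer the tail, with neighbouring genes often switched on or off together under Polycomb and Trithorax control. The normal adult forebrain expresses little of any HOX gene, while glioblastomas and their cell lines often do, which makes these genes a readout of positional identity in such cells.

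On GRCh38, with the gene positions of GENCODE release 29, the HOXA cluster spans chromosome 7, 27092993 to 27200106, and HOXB spans chromosome 17, 48528526 to 48729178, both on the minus strand. HOXC spans chromosome 12, 53938765 to 54056030, and HOXD chromosome 2, 176092891 to 176190907, both on the plus strand. The clusters are dense, and 33 of the 39 genes overlap another annotated gene, 24 of them one on the same strand and 25 one on the opposite strand. HOXC4, HOXC5, HOXC6, HOXC8 and HOXC9 overlap one another or share a long first part, as do HOXA3 with HOXA4, HOXA5 and HOXA6, and HOXB3 with HOXB4, HOXB5 and HOXB6. The strand setting of the counting is not given in the sources used here, so the values of overlapping genes and of antisense partners are uncertain where reads could have been shared.

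Promoter sequence was looked up in RefSeq (GRCh38.p14) for the genes with the largest called changes described below. The table held promoters of 20 of the 39 genes. HOXB2, with the largest change, was not among them. The windows of HOXD8, HOXD11 and HOXD10, the next 3, are shown as the genes that were off in U118 control cells and on in every other group, and the window that HOXC4 and HOXC5 share, chosen after the values were seen, as that of genes that were on in all 4 groups. Each is the run of 250 bases just before the RefSeq transcript start, on the plus strand, and capitals mark letters that match TGATNNAT (a site bound by HOX proteins with PBX), ACGTG (the core of the hypoxia response element) or AGGTCA (a nuclear receptor half-site) on either strand. The HOXD11, HOXD10 and HOXC4 and HOXC5 windows lie inside longer GENCODE gene models, of HOXD11, HOXD10 and HOXC6.
HOXD8, chr2:176129455-176129704: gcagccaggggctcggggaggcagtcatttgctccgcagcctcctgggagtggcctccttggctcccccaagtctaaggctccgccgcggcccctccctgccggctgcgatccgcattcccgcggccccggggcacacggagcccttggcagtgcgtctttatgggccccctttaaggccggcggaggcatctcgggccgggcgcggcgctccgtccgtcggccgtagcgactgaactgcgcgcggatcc
HOXD11, chr2:176107030-176107279: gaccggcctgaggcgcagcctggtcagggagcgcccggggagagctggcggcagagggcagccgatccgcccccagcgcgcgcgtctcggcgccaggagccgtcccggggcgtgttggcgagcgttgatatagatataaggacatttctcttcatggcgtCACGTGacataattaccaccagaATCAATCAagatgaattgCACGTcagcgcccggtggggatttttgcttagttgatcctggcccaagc
HOXD10, chr2:176116528-176116777: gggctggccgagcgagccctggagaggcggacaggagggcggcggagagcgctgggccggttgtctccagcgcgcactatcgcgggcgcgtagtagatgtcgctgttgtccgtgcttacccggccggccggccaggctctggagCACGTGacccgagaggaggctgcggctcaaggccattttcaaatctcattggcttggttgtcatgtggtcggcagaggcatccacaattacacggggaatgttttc
HOXC4 and HOXC5, chr12:54016638-54016887: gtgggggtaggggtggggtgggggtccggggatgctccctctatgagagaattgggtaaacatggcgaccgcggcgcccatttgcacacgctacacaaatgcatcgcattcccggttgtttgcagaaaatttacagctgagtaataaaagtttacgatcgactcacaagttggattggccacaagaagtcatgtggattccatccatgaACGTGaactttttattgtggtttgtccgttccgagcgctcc

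The HOXD8 window held none of the 3 motifs, while the HOXD10 and HOXD11 windows held CACGTG, a palindrome that contains ACGTG on both strands, and HOXD11 also held TGATNNAT. Over all 26 distinct windows of the 20 genes, 14 (53.8%) held ACGTG, against 18.5% of the 34943 promoter windows of the same length in the table, and 8 (30.8%) held CACGTG, against 6.32%. TGATNNAT was in 3 windows (11.5%, against 6.49%), and AGGTCA in 0 (against 12.1%). The median ratio of observed to expected CpG was 0.886 in the HOX windows and 0.556 in all windows, with median GC contents of 58.8% and 58.0%. ACGTG and CACGTG contain CpG, the windows of a cluster lie close together, and HOXA3 alone gave several windows, so the shares describe the sequence and no test was made. A match is not a binding site, and the windows of genes that were on in some group and of genes that were off in all groups were not compared.

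Expression was deposited as TPM, in which each gene is corrected for its length and every library adds up to nearly the same sum. Library depth cannot be read from such values and is unknown. The share of TPM on genes of the mitochondrial genome lay between 12.9% and 16.9% for U87 control, 22.2% and 23.7% for U87 aggregation, 7.42% and 19.7% for U118 control and 13.2% and 29.9% for U118 aggregation cells. All 20 housekeeping genes checked were above 0 in every library. The glioma and astroglial list (10 genes) had a summed level of 4958 to 7937 TPM over the 12 libraries, mostly VIM, with TNC called lower in U118 (-1.82 ± 0.21, limma adjusted p = 0.000128) as the one call in either line, GFAP under 1 TPM, and S100B and AQP4 at or near 0, in every library. A fibroblast list (8 genes) summed to 235 to 237 TPM in U87 control and 441 to 524 in U87 aggregation cells. In U118 it summed to 1301 to 1684 TPM in control and 291 to 658 in aggregation cells. Of its tested genes, 3 of 4 were called higher in U87 and 7 of 7 lower in U118. Of all genes tested, 3.03% were called higher and 7.79% lower in U87, and 8.64% and 26.6% in U118. PDGFRA was under 1 TPM in every U118 aggregation library and so was tested only through the control libraries. The part of this list in the results below was not tested. Of the endothelial (4 genes), immune (5), epithelial (4) and neuronal (4) lists, 1, 1, 1 and 1 genes were tested in U87 and none was called, and in U118 KDR fell and KRT8 rose among the 1, 1, 1 and 2 tested. KDR was under 1 TPM in every U118 aggregation library and so was tested in U118 only through the control libraries. Each of these 4 lists held a gene that was on. CD68, of the immune list, was at 170 to 379 TPM over the 12 libraries, SNAP25, of the neuronal list, at 3.01 to 13.4 TPM, KRT8, of the epithelial list, at 0.853 to 16.3 TPM and KDR, of the endothelial list, at 0.0276 to 3.40 TPM. SYT1, of the neuronal list, reached 3.84 TPM, while PTPRC, AIF1, CD3E, CDH5 and STMN2 stayed below 0.1 TPM and EPCAM and CDH1 below 1 TPM in all 12 libraries. The part of these lists in the results was not tested.

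The U118 aggregation libraries stood apart from their own line. Spearman's rho across the 16382 genes at 1 TPM or more in at least 3 libraries was 0.808 to 0.839 between U118 aggregation and U118 control libraries, but 0.895 to 0.909 between U118 aggregation and U87 control libraries and 0.907 to 0.913 with U87 aggregation libraries. Over the 39 HOX genes the same comparisons gave 0.240 to 0.311, 0.801 to 0.872 and 0.839 to 0.880. These are descriptions across genes, which are not independent, with the libraries of a line sharing a table. Of 116 genes at 10 TPM or more in all U87 control and under 1 in all U118 control libraries, 55 (47.4%) were at 10 TPM or more in all U118 aggregation libraries, and HOXB2, HOXD8 and HOXD11 are among the 116. Of 176 genes with the opposite pattern, 112 (63.6%) were under 1 TPM in all U118 aggregation libraries and 7 (3.98%) were at 10 TPM or more. Single genes went both ways. THY1, a surface glycoprotein of the fibroblast list, was at 213, 459 and 270 TPM in U118 control and 92.2, 104 and 51.2 TPM in U118 aggregation cells, a called fall (-1.90 ± 0.35), and at 0.127 TPM or less in every U87 library. PDGFRA, of the same list, fell from 88.3, 71.8 and 82.9 to 0.0875, 0.105 and 0.0716 TPM in U118 and was at 0.311 TPM or less in U87, and DCN fell from 39.6, 32.9 and 38.8 to 1.06, 0.282 and 0.224 TPM and was at 1.94 TPM or less in U87. Whether the U118 aggregation libraries hold U118 cells only was not tested, and every comparison below that uses these libraries rests on their labels.

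The 4 groups had different HOX profiles, and U118 control cells differed most from the rest. U118 control cells used HOXC almost alone. In their 3 libraries the HOXC genes made up 90.1% to 91.9% of the summed HOX level, and the summed level of the HOXD genes was 0.152 to 0.189 TPM. In U118 aggregation cells the HOXA, HOXB and HOXD genes were on, and HOXC made up 8.16% to 15.3%. In U87, all 4 clusters were on in both control and aggregation cells, with HOXB at 37.6% to 43.0% of the control level and HOXD at 34.5% to 40.3%. The summed level of all 39 genes was 137 to 148 TPM in U87 control libraries, 105 to 143 in U87 aggregation, 30.9 to 47.1 in U118 control and 169 to 204 in U118 aggregation libraries, so that the U118 groups did not overlap and the U87 groups did.

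**Figure D1:**
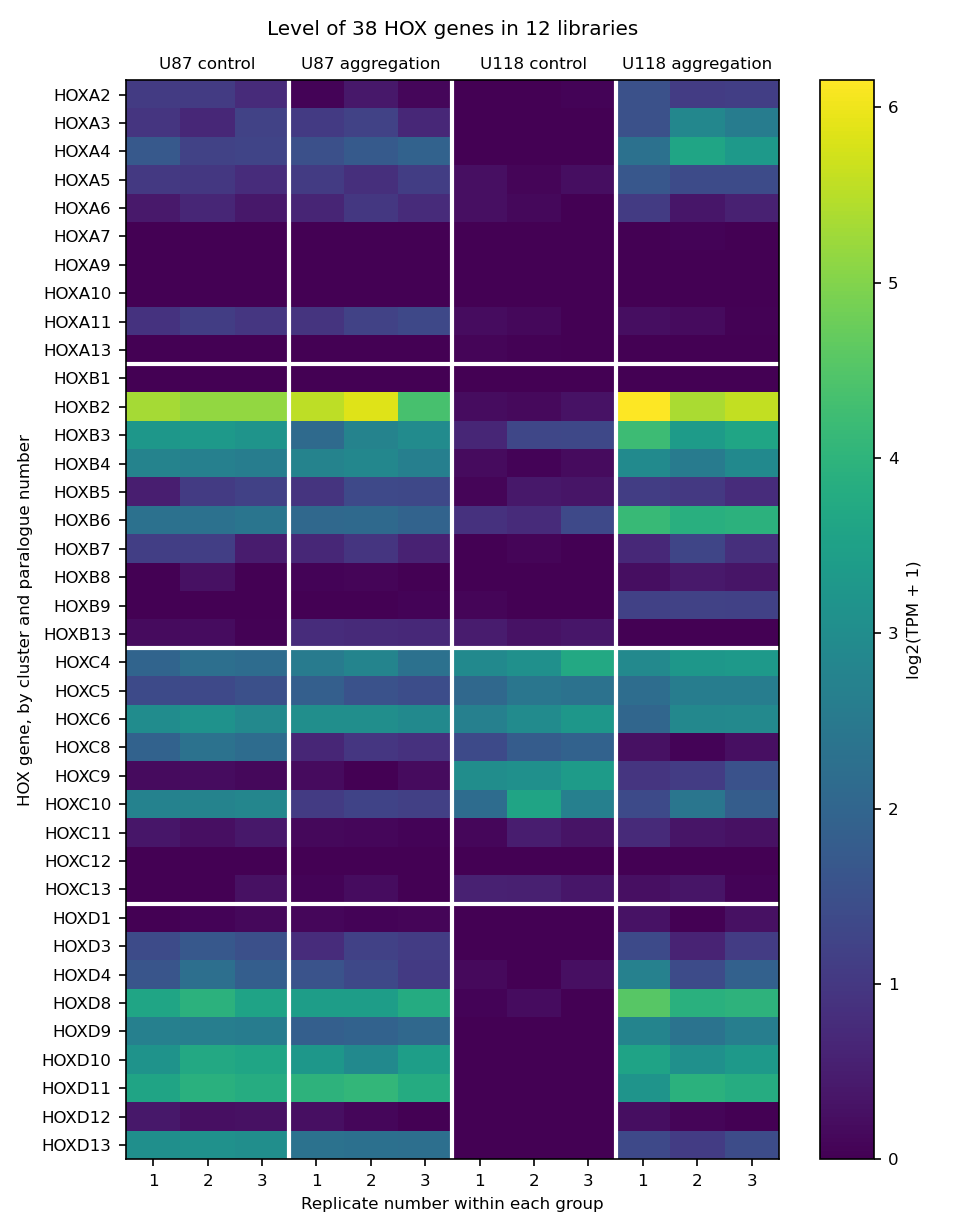
Heat map of log2(TPM + 1) for the HOX genes reported here (rows, by cluster and number) in the 12 libraries (columns, by group and replicate number), with white lines between clusters and groups. In the 3 U118 control libraries the HOXA, HOXB and HOXD blocks are dark apart from a low level of HOXB3 and HOXB6, in the other 9 libraries part of each block is lit, and HOXC4, HOXC5 and HOXC6 are lit in all 12.

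By library, 20 to 22 HOX genes reached 1 TPM in U87 control cells, 18 to 20 in U87 aggregation, 6 to 8 in U118 control and 22 to 23 in U118 aggregation cells. The genes at 1 TPM or more in all 12 libraries were 4, HOXC4, HOXC5, HOXC6 and HOXC10. Under 1 TPM in all 12 were 12 genes, HOXA7, HOXA9, HOXA10, HOXA13, HOXB1, HOXB8, HOXB13, HOXC11, HOXC12, HOXC13, HOXD1 and HOXD12. Of these, HOXA9, HOXA10 and HOXC12 were listed at 0 in every library. HOXA9 and HOXA10 overlap each other on the same strand, and a value of 0 in a table without counts may also be a failed estimate. In U118 control cells 15 genes were listed at 0 in all 3 libraries, among them HOXA3, HOXA4, HOXD3, HOXD9, HOXD10, HOXD11 and HOXD13.

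Along the axis, the sum of the 12 anterior genes (groups 1 to 4) was 7.64 to 14.2 TPM in U118 control and 90.8 to 122 TPM in U118 aggregation libraries. The 15 central genes (5 to 9) summed to 18.6 to 26.7 and 50.6 to 59.1 TPM, and the 12 posterior genes (10 to 13) to 4.68 to 12.4 and 23.4 to 28.1 TPM. Each of the 3 ranges was higher in aggregation than in control cells without overlap. In U87 the anterior sum was 63.8 to 67.9 TPM in control and 43.5 to 83.0 in aggregation libraries, the central sum 34.6 to 41.2 and 29.5 to 32.0, and the posterior sum 33.6 to 41.2 and 29.9 to 30.4, so that the anterior ranges overlapped and the other two lay lower in aggregation cells.

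Aggregation and control cells were compared within each line with limma on log2(TPM + 1), over genes at 1 TPM or more in at least 3 of the 6 libraries. A gene was called where its p, adjusted by Benjamini-Hochberg over all genes tested, was under 0.05 and its log2 difference at least 1, and every log2 value below is a difference on the log2(TPM + 1) scale with its SE, which understates changes of genes at low TPM. In U118, 22 of the 39 HOX genes were tested, and calls were made for 16 that rose and 2 that fell in aggregation cells, while 8.64% of all 15527 genes tested were called higher and 26.6% lower. The median log2 difference was 2.10 over the 22 genes and -0.52 over all genes. Of the 16, 14 passed the filter only through the aggregation libraries, which is where they were high. HOXB3 and HOXB6 are the other 2. Of all 621 genes that passed that way 556 (89.5%) were called higher, and their median was 1.92. So neither the HOX count, here or under the settings that follow, nor the HOX median gives support of its own. With median-ratio scaling of the libraries, 2337 genes were higher and 1981 lower over all genes (1341 and 4134 as deposited), the median of all genes moved to -0.02, and the HOX counts were again 16 and 2. They were also 16 and 2 without U118 control replicate 3 and aggregation replicate 1, whose mitochondrial shares of 19.7% and 13.2% stood apart from those of their groups. In bulk RNA, fewer cells that express a gene and less RNA per cell cannot be told apart.

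**Figure D2:**
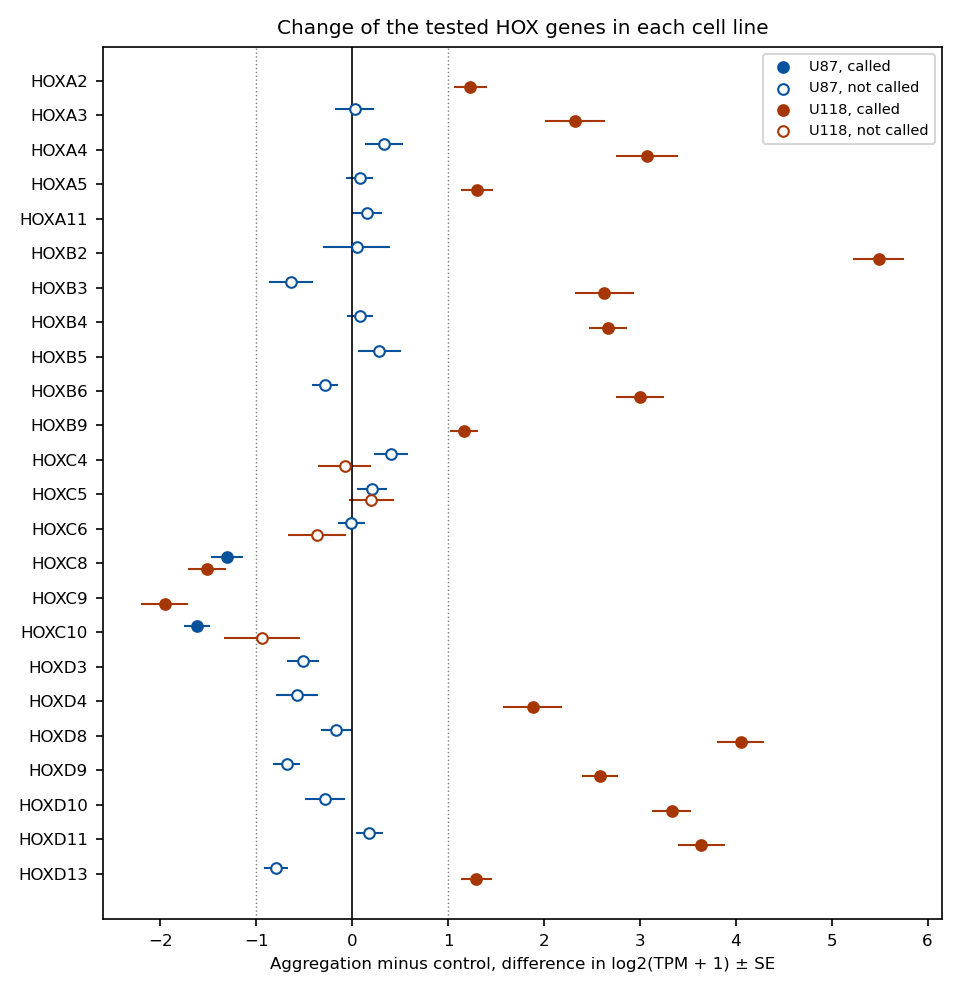
Difference in log2(TPM + 1) between aggregation and control cells, with its SE, for the HOX genes reported here that were tested in U87 (blue) or U118 (brown), in cluster order, with filled points for called genes and dotted lines at -1 and 1. In U118 every HOXA, HOXB and HOXD gene drawn lies right of 1 and no HOXC gene does, while in U87 the 2 called genes are HOXC8 at -1.30 and HOXC10 at -1.61.

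In the HOXB cluster, all 5 genes tested in U118 rose. HOXB2, HOXB4 and HOXB9 passed the filter only through the aggregation libraries, where they were high, so their calls give no support of their own. HOXB2, which acts in hindbrain patterning, was at 0.145, 0.111 and 0.235 TPM in the U118 control libraries and at 70.2, 40.8 and 46.8 TPM in U118 aggregation. It had the largest change of any HOX gene, 5.49 ± 0.26 (limma adjusted p = 1e-06). HOXB2 was the most abundant HOX gene in U87 too, at 38.9, 34.5 and 34.7 TPM in control and 45.7, 56.4 and 19.8 TPM in aggregation cells, and it held 55.8% to 61.4% of the HOXB sum in U118 aggregation and 62.2% to 66.1% in U87 control libraries. The U87 groups overlapped for HOXB2, with aggregation replicate 3 the lowest and replicate 2 the highest of the 6.

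HOXB3, another anterior gene, was at 0.576, 1.5 and 1.52 TPM in U118 control and at 17.5, 9.38 and 11.3 TPM in U118 aggregation cells (2.63 ± 0.30, limma adjusted p = 0.000142). HOXB6 went from 0.838, 0.678 and 1.57 to 16.6, 13.9 and 14.5 TPM (3.0 ± 0.25, limma adjusted p = 1.71e-05), above its U87 range of 2.89 to 4.29 TPM. So both were detected in U118 control cells and were far higher in every aggregation library. HOXB4, a gene used to expand blood stem cells, was at 0.133, 0.0455 and 0.139 TPM in control and 6.75, 4.88 and 6.6 TPM in aggregation cells (2.67 ± 0.20, limma adjusted p = 9.36e-06). HOXB9 was near 0 in all other groups, at most 0.0576 TPM, and was at 1.29, 1.32 and 1.27 TPM in U118 aggregation (1.17 ± 0.15, limma adjusted p = 0.000229). It was the one HOX gene tested that was detected at 1 TPM in U118 aggregation cells and in no other group. HOXB5, HOXB7 and HOXB8 were not tested in U118, with aggregation means of 0.971, 0.950 and 0.258 TPM and control means of 0.218, 0.0208 and 0 TPM. HOXB13, a posterior gene, was at 0.394, 0.241 and 0.297 TPM in U118 control and listed at 0 in aggregation cells, and in U87 at 0.137, 0.151 and 0.0242 TPM in control and 0.720, 0.650 and 0.622 TPM in aggregation cells, untested in both lines.

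In the HOXD cluster, whose posterior genes pattern limbs and the urogenital tract, 6 genes were tested in U118 and all 6 rose. All 6 passed the filter only through the aggregation libraries, so this count gives no support of its own. Of all genes that passed that way, 89.5% were called higher. HOXD8 was at 0.0447, 0.152 and 0 TPM in U118 control and at 22.3, 14.0 and 14.7 TPM in U118 aggregation cells (4.05 ± 0.24, limma adjusted p = 2.83e-06). HOXD11 was listed at 0 in all 3 control libraries and was at 8.03, 14.3 and 13.1 TPM in aggregation (3.64 ± 0.25, limma adjusted p = 5.54e-06). HOXD10 was likewise at 0 and then at 11.0, 7.53 and 8.99 TPM (3.33 ± 0.21, limma adjusted p = 3.33e-06). These are the genes whose promoter windows are printed above, and no ratio is given for the genes listed at 0. HOXD9 went from 0 in each library to 5.88, 4.05 and 5.19 TPM (2.58 ± 0.19), HOXD4 from 0.116, 0 and 0.189 to 5.57, 1.67 and 2.78 TPM (1.88 ± 0.30), and HOXD13 from 0 in each to 1.57, 1.13 and 1.69 TPM (1.29 ± 0.16), with limma adjusted p-values of 9.28e-06, 0.001 and 0.000229. HOXD3 was listed at 0 in control and was at 1.62, 0.522 and 1.14 TPM in aggregation cells, which left it untested. HOXD1 and HOXD12 stayed under 1 TPM.

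In the HOXA cluster, all 5 genes tested in U118 rose. All 5 passed the filter only through the aggregation libraries, like the genes of which 89.5% were called higher, and this count gives no support of its own. HOXA4 was listed at 0 in control and was at 3.88, 11.3 and 9.01 TPM in aggregation cells (3.08 ± 0.32, limma adjusted p = 8.09e-05), and HOXA3 at 0 and then at 1.89, 6.18 and 5.0 TPM (2.32 ± 0.31, limma adjusted p = 0.000373). Aggregation replicate 1 was the lowest of its group for both and is the library with the lowest mitochondrial share, 13.2%. HOXA2 and HOXA5 reached aggregation means of 1.41 ± 0.422 and 1.82 ± 0.298 TPM (SD, n = 3 each), from control means of 0.0154 and 0.140 TPM, with log2 differences of 1.23 ± 0.17 and 1.30 ± 0.17. HOXA6 was untested, at 1.09, 0.305 and 0.489 TPM in aggregation cells, and HOXA7, HOXA9, HOXA10 and HOXA13 were at or near 0 in all groups. HOXA9 and HOXA10, often studied in leukaemia and glioma, thus gave no signal here.

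In the HOXC cluster, 6 genes were tested in U118, of which 0 rose and 2 fell. HOXC9 was at 7.04, 7.49 and 9.31 TPM in U118 control and at 0.915, 1.14 and 1.94 TPM in U118 aggregation cells, a log2 difference of -1.96 ± 0.25 (limma adjusted p = 0.000244), and in U87 it never passed 0.143 TPM. HOXC8 was at 1.59, 2.47 and 2.82 TPM in U118 control and at 0.202, 0.0403 and 0.185 TPM in aggregation cells (-1.51 ± 0.20, limma adjusted p = 0.000313). HOXC8 passed the filter only through the control libraries, as did 1117 genes in U118, of which 900 (80.6%) were called lower. HOXC10 was at 3.51, 11.1 and 5.40 TPM in U118 control and at 1.62, 4.37 and 2.54 TPM in aggregation cells, groups that overlapped, with a log2 difference of -0.94 ± 0.40 (limma adjusted p = 0.0761). HOXC10 was called in U118 only without control replicate 1 (-1.26) or without aggregation replicate 2 (-1.21).

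HOXC4, HOXC5 and HOXC6, the anterior end of the cluster, were on in every U118 library. HOXC4 was at 6.57, 7.52 and 12.03 TPM in U118 control and 6.39, 8.54 and 9.11 TPM in aggregation cells, with a log2 difference of -0.08 ± 0.28. HOXC5 was at 3.20, 4.33 and 3.99 TPM and then at 3.61, 5.09 and 5.05 TPM (0.20 ± 0.23), and HOXC6 at 5.36, 6.80 and 8.51 TPM and then at 3.07, 6.28 and 6.44 TPM (-0.37 ± 0.30). The groups overlapped for all 3 genes, and none passed the test (limma adjusted p = 0.83, 0.489 and 0.336). HOXC11, HOXC12 and HOXC13 were under 1 TPM in every library.

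**Figure D3:**
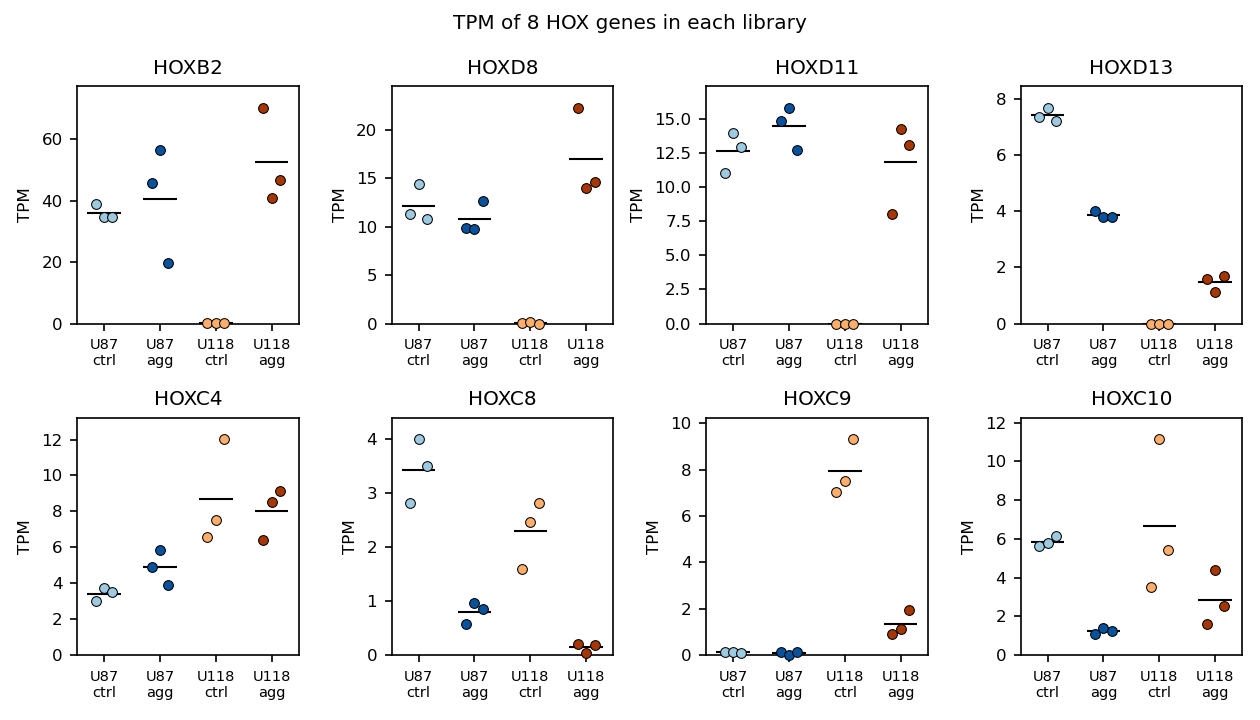
TPM of 8 HOX genes in each of the 12 libraries (points), with a line at the mean of each group (ctrl, control, and agg, aggregation). HOXB2, HOXD8, HOXD11 and HOXD13 lie at or near 0 in U118 control cells only, HOXC9 is high in U118 control cells only, and HOXC8 is lower in the aggregation cells of both lines.

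In U87, 22 HOX genes were tested, 0 were called higher and 2 lower, while 3.03% of the 13845 genes tested were called higher and 7.79% lower. Without regard to the size of the change, 0 HOX genes were higher and 6 were lower at an adjusted p under 0.05. The share of all genes at that looser threshold was not counted, so these counts show nothing particular to HOX genes. The median log2 difference was -0.09 over the 22 genes and -0.25 over all genes. Both called genes are HOXC genes, HOXC8 of the central and HOXC10 of the posterior groups. HOXC10 was at 5.63, 5.78 and 6.13 TPM in U87 control and at 1.1, 1.37 and 1.24 TPM in aggregation cells (-1.61 ± 0.13, limma adjusted p = 0.000241). HOXC8 was at 2.81, 4.01 and 3.50 TPM in control and at 0.577, 0.960 and 0.852 TPM in aggregation cells (-1.30 ± 0.17, limma adjusted p = 0.00126), and it passed the filter only through the control libraries, like 269 genes in U87 of which 125 (46.5%) were called lower. HOXC8 was the one HOX gene called in both lines, lower in aggregation cells in each.

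The other 4 genes past the adjusted p in U87 had log2 differences smaller than 1, among them 3 HOXD genes. HOXD13 was at 7.37, 7.69 and 7.23 TPM in control and 4.02, 3.81 and 3.78 TPM in aggregation cells (-0.79 ± 0.13, limma adjusted p = 0.00342), and HOXD9 at 5.44, 5.25 and 4.95 and then at 2.63, 2.80 and 3.20 TPM (-0.68 ± 0.14, limma adjusted p = 0.00819). HOXD3 differed by -0.51 ± 0.16 (limma adjusted p = 0.0449). For HOXD13 and HOXD9 no aggregation library reached a control library. HOXA2 was untested in U87, at 1.09, 1.08 and 0.688 TPM in control and 0.0506, 0.318 and 0.0734 TPM in aggregation cells. HOXC4 was the largest positive value, at 2.98, 3.71 and 3.54 TPM in control and 4.91, 5.84 and 3.91 TPM in aggregation cells, and it did not pass (0.41 ± 0.17, limma adjusted p = 0.109). HOXD8, HOXD10 and HOXD11, at U87 control means of 12.2, 10.4 and 12.6 TPM, had differences of -0.16 ± 0.17, -0.28 ± 0.21 and 0.18 ± 0.14. Over the 39 genes, Spearman's rho was 0.926 to 0.948 between U87 control and aggregation libraries. That was below the 0.974 to 0.982 among control and the 0.955 to 0.971 among aggregation libraries. Over the 16382 genes rho was 0.944 to 0.952 between these groups, 0.973 to 0.985 among control and 0.985 among aggregation libraries. A drop between the groups is thus not particular to HOX genes.

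The difference between the lines in the change from control to aggregation cells was the interaction term of a fit to all 12 libraries. In that fit 26 HOX genes were tested. The change was higher in U118 for 18 of them and lower for 1, HOXC9, beside 12% and 18.5% of all 16382 genes. HOXB9, among the 18, passed the filter of this fit only through the U118 aggregation libraries, where it was high. Its call gives no support of its own. HOXC9 passed that filter only through U118 libraries. Cell line and table cannot be told apart in any comparison between the lines, and each table may have been made separately. The interaction was largest for HOXB2, at 5.44 ± 0.45 (limma adjusted p = 1.19e-06), and HOXD8, at 4.22 ± 0.30 (limma adjusted p = 3.25e-07). For HOXC9 it was -1.91 ± 0.25 (limma adjusted p = 5.85e-05). All 7 HOXD genes tested were among the 18, with 6 of 7 in HOXB and 5 of 6 in HOXA, and 0 of 6 in HOXC were higher. For HOXC8 and HOXC10 the interaction was -0.21 ± 0.25 and 0.68 ± 0.47 (limma adjusted p = 0.546 and 0.280), so a different fall in the 2 lines was not shown for either gene. The call for HOXB7, at 1.09 ± 0.29, was lost without U87 control replicate 1 (0.97) or 2 (0.98) or without U118 aggregation replicate 2 (0.92).

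Between the control cells of the lines, 2 HOX genes were higher in U118 and 13 lower, against 25.6% and 11.0% of all genes. Among the 13 were HOXA4, HOXB2, HOXB3, HOXB4, HOXB6 and the 7 HOXD genes tested, and the largest was HOXB2 at -4.99 ± 0.32 (limma adjusted p = 5.37e-08). HOXC9 was higher by 2.98 ± 0.17 (limma adjusted p = 2.15e-08) and HOXC4 by 1.1 ± 0.24 (limma adjusted p = 0.00161), a call that HOXC4 lost without U118 control replicate 3 (0.87) and under median-ratio scaling (0.76). HOXC9 passed the filter of this fit only through U118 libraries, the line where it was high. Its call between the control cells therefore gives no support of its own. By level, HOXC9 was at 7.04 TPM or more in U118 control and at 0.143 TPM or less in U87 libraries. Genes of the HOXA, HOXB and HOXD clusters were higher in U87 control cells.

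Between the aggregation cells, 8 HOX genes were higher in U118 and 1 lower, against 8.79% and 5.59% of all genes. HOXB6 differed most, at 1.95 ± 0.19 (limma adjusted p = 1e-05), and the others included HOXA4 at 1.35 ± 0.29, HOXA3 at 1.34 ± 0.29, HOXB9 at 1.18 ± 0.09, HOXB3 at 1.11 ± 0.28, HOXC9 at 1.07 ± 0.17 and HOXA2 at 1.06 ± 0.15. HOXB9 passed the filter of this fit only through the U118 aggregation libraries, so its call gives no support of its own. HOXC9 passed it only through U118 control and aggregation libraries, and its call gives none either. The calls for HOXA2 (0.92) and HOXB3 (0.88) were lost without U118 aggregation replicate 1, that for HOXB3 also without U87 aggregation replicate 1 (0.87) and under median-ratio scaling (0.999), and that for HOXC9 without U118 aggregation replicate 3 (0.89). HOXA11, a posterior gene near 1 TPM in U87 and at 0.174 TPM or less in U118, had a log2 difference of -1.0 ± 0.13 (limma adjusted p = 0.00012). That call sat at the threshold and was lost without U87 aggregation replicate 2 (-0.98) or 3 (-0.92) or U118 aggregation replicate 3 (-0.95). HOXA11 also passed the filter of this fit only through U87 libraries, where it was higher, so its call gives no support of its own. No HOXD gene was called. The differences of HOXD8, HOXD9 and HOXD4 were 0.59 ± 0.21, 0.63 ± 0.16 and 0.69 ± 0.29, those of HOXD3 and HOXD10 0.00 ± 0.19 and 0.12 ± 0.22, and that of HOXD11 -0.30 ± 0.21. HOXD13 was at -0.99 ± 0.15 (limma adjusted p = 0.000301), from aggregation means of 3.87 TPM in U87 and 1.46 TPM in U118, just short of the size threshold. It was called lower without U118 aggregation replicate 1 (-1.03) or 3 (-1.06), without U87 aggregation replicate 3 (-1.004), with a pseudocount of 0.1 (-1.36), under median-ratio scaling (-1.13) and without mitochondrially encoded genes (-1.06). HOXC9 at 0.915 TPM or more, HOXB9 at 1.27 TPM or more and HOXA11 at 0.174 TPM or less, chosen after their values were seen, set every U118 aggregation library apart from every U87 library.

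Non-coding RNAs transcribed within the clusters were taken from a list of 24, of which 23 were found and 6 were tested in each line. In U118 all 6 tested rose and 0 fell, beside 8.64% and 26.6% of all genes. All 6 were under 1 TPM in every U118 control library and so passed the filter only through the aggregation libraries, as did the genes of which 89.5% were called higher, and their count gives no support of its own. HOTAIRM1, a non-coding RNA of the HOXA cluster, was at 0.356, 0.188 and 0.207 TPM in U118 control and 42.4, 28.5 and 34.6 TPM in aggregation cells (4.84 ± 0.24, limma adjusted p = 1.13e-06). HOXD-AS2, antisense to HOXD8 and HOXD9, was listed at 0 in control and was at 18.8, 19.3 and 19.3 TPM in aggregation cells (4.33 ± 0.20). HOXB-AS1 and HAGLR had aggregation means of 8.78 and 6.08 TPM, with differences of 3.12 ± 0.26 and 2.82 ± 0.18. HOXA-AS2 and HOTAIR, the RNA of the HOXC cluster known to act on HOXD, changed by 1.5 ± 0.19 and 1.39 ± 0.28. In U87, 0 rose and 1 fell, HOTAIRM1, at 9.36, 8.50 and 10.005 TPM in control and 4.57, 3.80 and 2.64 TPM in aggregation cells (-1.16 ± 0.19, limma adjusted p = 0.00369). Without the strand setting, reads of these RNAs and of the HOX genes opposite them cannot be told apart.

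Beyond the ends of the clusters lie genes of other families. Of 18 such neighbours listed, 10 were tested in each line, of which 1 rose and 2 fell in U118, and 0 and 0 changed in U87, with medians of -0.39 and -0.13, counts near the shares of all genes called higher and lower (8.64% and 26.6% in U118, 3.03% and 7.79% in U87). EVX1 and EVX2, the homeobox genes at the posterior ends of HOXA and HOXD, were at or near 0 in all libraries. SKAP2, beyond the anterior end of HOXA, was at 15.7, 14.4 and 17.8 TPM in U118 control and 19.995, 13.6 and 15.1 TPM in aggregation cells (0.01), and MTX2, beyond HOXD, differed by -0.05. HIBADH and CBX5 fell by 1.64 and 1.61 on the log2 scale, and ATP5MC3 rose by 1.12. Of the 10 neighbours tested in U118, ATP5MC3 was thus the one that rose.

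HOX proteins bind DNA with TALE cofactors of the PBX and MEIS families. Of 12 listed, 10 were tested in U118, of which 1 rose and 3 fell (median -0.27), and 8 in U87, of which 0 rose and 0 fell (median 0.13). The shares of all genes called higher and lower were 8.64% and 26.6% in U118 and 3.03% and 7.79% in U87, and counts of 1 and 3 of 10 are near them. PBX2 was at 39.4, 39.2 and 43.3 TPM in U118 control and 23.1, 12.01 and 19.5 TPM in aggregation cells (-1.16 ± 0.26, limma adjusted p = 0.00609), with U87 at 17.6 to 26.5 TPM. MEIS1 went from 5.67, 7.39 and 8.66 to 1.46, 1.00 and 0.941 TPM (-1.94 ± 0.23, limma adjusted p = 0.000188), near its U87 levels. MEIS3 rose from 4.29, 4.43 and 4.18 to 39.6, 41.3 and 39.1 TPM (2.95 ± 0.21, limma adjusted p = 6.76e-06), with U87 at 32.1 to 40.7 TPM. So the cofactors changed in opposite directions in U118 while PBX3, at 37.0 TPM or more in all but 1 library (25.4 TPM), differed by 0.17.

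Polycomb proteins hold HOX clusters silent, and Trithorax proteins and H3K27 demethylases keep them active. Of 31 Polycomb genes, all tested in both lines, 0 rose and 7 fell in U118 (median -0.60), and 0 rose and 3 fell in U87 (median -0.34). In U118 the lowest were EED, a core subunit of the repressive complex that methylates H3K27, at 32.6, 25.6 and 20.6 TPM in control and 11.0, 4.59 and 5.63 TPM in aggregation cells (-1.81 ± 0.33, limma adjusted p = 0.00188), and MTF2, PHC3 and ASXL1, at -1.59, -1.39 and -1.36. EZH2, the methylating subunit, was at 46.2, 46.5 and 61.1 TPM and then at 61.0, 39.7 and 42.2 TPM (-0.12). In U87, BAP1, PCGF5 and ASXL1 changed by -1.18, -1.1 and -1.06. Of 22 Trithorax and demethylase genes, 21 were tested in each line, with 0 up and 8 down in U118 (median -0.66) and 0 up and 1 down in U87 (median -0.50). KMT2A, the methyltransferase best known for keeping HOX genes on, fell in both, from 5.74 ± 1.39 to 2.40 ± 1.42 TPM in U87 and from 17.7 ± 2.15 to 4.90 ± 0.839 TPM in U118 (SD, n = 3 each), and ASH2L, NSD1 and PSIP1 changed by -1.42, -1.30 and -1.19 in U118. These counts of 7 of 31 and 8 of 21 stand beside the 26.6% of all genes called lower in U118, and those of 3 of 31 and 1 of 21 beside the 7.79% called lower in U87.

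Retinoic acid is a natural inducer of anterior HOX genes. Of 21 genes of its pathway, 14 were tested in U118, of which 3 rose and 3 fell (median -0.36), and 15 in U87, of which 4 rose and 2 fell (median 0.19), beside 8.64% and 26.6% of all genes in U118 and 3.03% and 7.79% in U87. The 3 that rose in U118, ALDH1A3, DHRS3 and RARB, were under 1 TPM in every control library and passed the filter only through the aggregation libraries. ALDH1A3, which makes retinoic acid, was at 0.112, 0.278 and 0.106 TPM in U118 control and 183, 50.8 and 54.4 TPM in aggregation cells (6.12 ± 0.45, limma adjusted p = 8.96e-06), with replicate 1 far above the other aggregation libraries. DHRS3, a retinaldehyde reductase and known retinoid target, was at 0.320, 0.657 and 0.160 and then at 67.3, 56.0 and 55.2 TPM (5.46 ± 0.24, limma adjusted p = 6.86e-07), and RARB, a retinoic acid receptor and known target, at 0.133 TPM or less and then at 5.25, 1.40 and 2.14 TPM (1.75 ± 0.32). In U87 both enzymes rose as well. ALDH1A3 went from 0.891, 1.53 and 0.473 to 9.40, 8.66 and 7.85 TPM (2.33 ± 0.22). DHRS3 went from 1.26, 0.987 and 1.36 to 5.30, 5.10 and 5.66 TPM (1.53 ± 0.14). Whether retinoic acid had a part in the HOX changes was not tested. CYP26B1, which degrades retinoic acid, rose in U87 by 2.56 ± 0.12. It was at 0.0449 TPM or less in U87 control libraries and passed the filter only through the aggregation libraries, so its call gives no support of its own. CRABP2, the cellular retinoic acid carrier, moved in opposite directions, with 1.27 ± 0.14 in U87 and -2.80 ± 0.32 in U118. NCOR1 and RXRB changed by -2.16 and -1.45 in U118, and ALDH1A1 by -1.38 in U87. ALDH1A1 was at 0.386 TPM or less in U87 aggregation libraries and was tested there only through the control libraries, so this call gives no support of its own. Of the CDX and ParaHox genes (6), which act upstream of or beside the HOX clusters, 0 were tested, and CDX1 at 0.471 TPM in 1 U118 control library was the highest value.

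**Figure D4:**
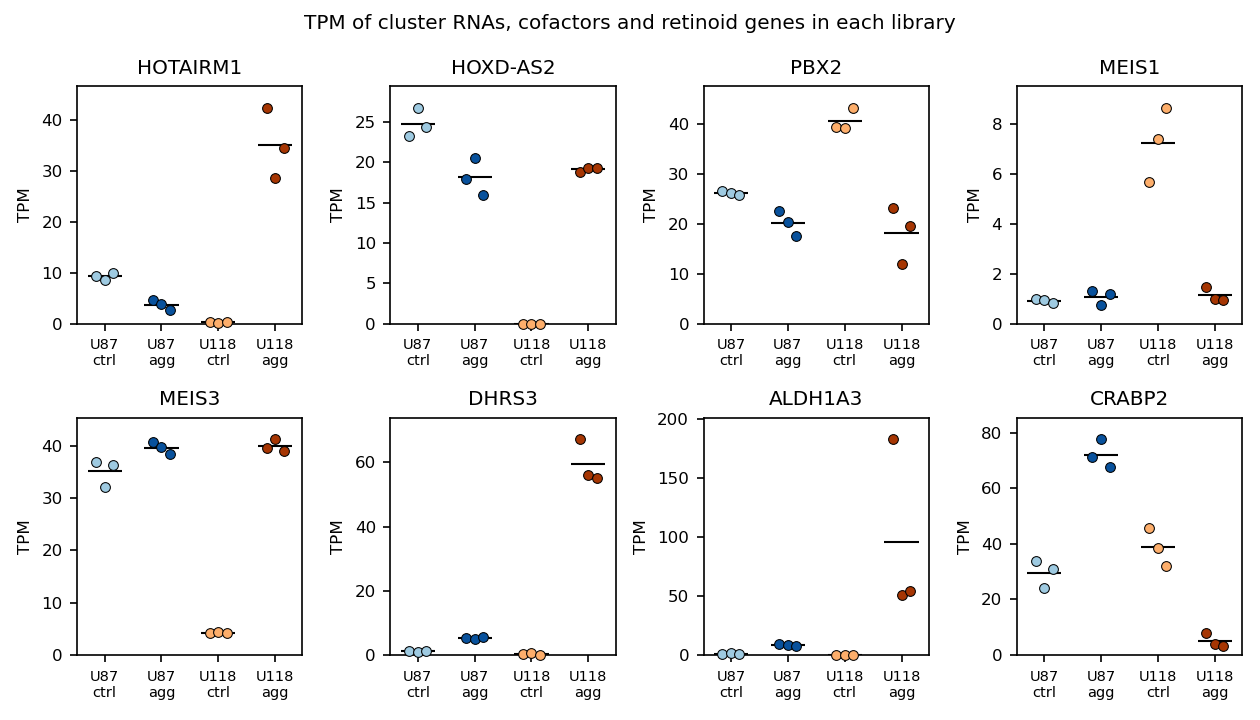
TPM of 2 cluster RNAs, 3 TALE cofactors and 3 retinoid genes in each of the 12 libraries (points), with a line at the mean of each group (ctrl, control, and agg, aggregation). In U118 aggregation cells HOTAIRM1, HOXD-AS2, MEIS3, DHRS3 and ALDH1A3 are above, and PBX2, MEIS1 and CRABP2 below, every U118 control library.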

How the data were processed

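The mRNA of U87 and U118 control and aggregation cells was measured in 12 libraries (VAHTS mRNA-seq V2 kit). The authors deposited TPM per gene, one table per cell line, with 58174 Ensembl identifiers each and library totals of 999974 to 999993. The submitters' processing notes name FastQC 0.11.2, Trimmomatic 0.36, HISAT2 2.0, bedtools 2.26.0 and GRCh38. The counting tool, annotation and strand setting are not given in the sources used here. Symbols were found for 57392 identifiers and GENCODE 29 positions for 57836. Promoters came from RefSeq, with the 50 bases after each start left out.

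On the log2(TPM + 1) scale, linear models were fitted by limma 3.58.1 (R 4.3.3, eBayes with trend) over all genes at 1 TPM or more in at least 3 libraries of the fit, 6 libraries within a line and 12 between lines, with Benjamini-Hochberg adjustment over all genes tested. The fits were tested on simulated data. Tables and figures used pandas 2.3.3, scipy 1.17.1 and matplotlib 3.10.9 in Python 3.11.15. Exact permutation tests were not used, since the smallest two-sided p of 3 libraries against 3 is 0.1. The members, gene lists and tests were chosen with earlier results of these data known. All HOX genes were to be named and, of each other list, the called genes, at most the 4 highest and 4 lowest per line, beside some genes chosen after their values were seen. A few of these genes are not reported here but stay in all counts, medians and sums. Alternatives were a replicate block, no filter, a filter at a mean of 10 TPM, a pseudocount of 0.1, TPM without mitochondrially encoded genes, scaling by median ratios, no size threshold, no trend in eBayes and leaving out each library.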

Additional observations from a re-analysis of the deposited data

Results flagged for a closer look

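For 19 HOX genes the change from control to aggregation cells differed between the lines by the interaction test over all 12 libraries. The test was limma on log2(TPM + 1), with adjusted p under 0.05 and a size of at least 1. Of these genes, 18 were higher and 1 lower in U118, beside 12% and 18.5% of all 16382 genes. Values are the U118 change minus the U87 change on the log2 scale. Among them, in HOXA they were 1.999 for HOXA2, 2.292 for HOXA3, 2.747 for HOXA4 and 1.222 for HOXA5. In HOXB they were 5.443 for HOXB2, 3.267 for HOXB3, 2.59 for HOXB4, 3.284 for HOXB6, 1.09 for HOXB7 and 1.15 for HOXB9. HOXB9 passed the filter only through the U118 aggregation libraries. In HOXC the one value was -1.907 for HOXC9, which passed the filter only through U118 libraries. In HOXD they were 1.543 for HOXD3, 2.457 for HOXD4, 4.215 for HOXD8, 3.266 for HOXD9, 3.616 for HOXD10, 3.462 for HOXD11 and 2.084 for HOXD13. Groups of 3 libraries were not searched for single outlying libraries.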

How the results depend on the processing

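The HOX counts (higher and lower) were 0 and 2 in U87, 16 and 2 in U118, 18 and 1 for the interaction, 2 and 13 between control cells and 8 and 1 between aggregation cells. With the replicate block they were the same in all 5 comparisons. The numbers were not taken to pair the libraries, since same-number deviations correlated at 0.011, -0.067 and -0.04 in U87 and at 0.139, 0.051 and 0.095 in U118, where each library correlated best with its own number, which is a hint from the data only. A mean of at least 10 TPM left 3, 1 and 2 HOX genes tested in U87, U118 and the 12-library fits, and gave 0 lower in U87, 1 higher and 0 lower in U118, 2 and 0 for the interaction, 0 and 2 between control cells and 0 and 0 between aggregation cells, because most HOX genes lie below that level. Over all genes with that filter, 630 of 7616 were lower in U87, and 536 were higher and 2152 lower of 8621 in U118. Of 8228 genes, 963 were higher and 1100 lower for the interaction, 1615 and 953 between control cells and 629 and 474 between aggregation cells. Without the size threshold, 6 were lower in U87, 3 were higher and 19 lower between control cells, and 11 were higher and 3 lower between aggregation cells. The shares of all genes without that threshold were not counted. Between aggregation cells the lower count was also 3 with a pseudocount of 0.1, 2 under median-ratio scaling, 2 without mitochondrially encoded genes and 0 to 2 with libraries left out, and between control cells the higher count was 1 under median-ratio scaling and 1 to 2 with libraries left out. Over all genes these lower counts were 1232 of 16382, 1185 of 16116, 1002 of 16967 and 770 to 1311 of 16382, in the same order. The higher counts over all genes were 2486 of 16116 and 3623 to 4784 of 16382. With a pseudocount of 0.1, 3 were higher and 19 lower between control cells (HOXC5 joined the higher, and HOXA2, HOXA3, HOXA5, HOXA11, HOXB5 and HOXB7 the lower), and 16 were lower without mitochondrially encoded genes. Over all genes 4969 were higher and 2196 lower of 16382 with that pseudocount, and 1950 of 16967 were lower without mitochondrially encoded genes. The cause was not tested. The sign of uncalled changes reversed for HOXC6 (0.2236 under median-ratio scaling, 0.1164 without mitochondrially encoded genes) and HOXD8 (0.07995 under median-ratio scaling) in U87, and for HOXC4 (0.4262 and 0.1004 in the same order) and HOXC6 (0.1295 under median-ratio scaling) in U118. Without U118 control replicate 3 and aggregation replicate 1 together, a choice made after seeing the data, HOXC4 and HOXC6 were at 0.2907 and 0.06365. Leaving out 1 library in U87 gave -0.1059 at the lowest and 0.1769 at the highest for HOXA3, -0.2484 and 0.4857 for HOXB2 and -0.06697 and 0.0601 for HOXC6. In U118 it gave -0.2373 and 0.1541 for HOXC4 and -0.5157 and -0.08115 for HOXC6, which kept its sign. TPM keeps no depth, so what a value near 0 excludes is unknown.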
